A study of Mus musculus with 3 samples.

Results

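Mitochondria are a major source of superoxide, and the enzymes that remove it work in relay. Superoxide dismutases turn superoxide into hydrogen peroxide, and catalase, glutathione peroxidases and peroxiredoxins then reduce the peroxide to water. The thioredoxin system returns oxidised peroxiredoxins to their active form with electrons from NADPH, and the transcription factor NRF2, encoded by Nfe2l2, drives many genes of this defence.

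The genes described here are 10 genes of that mitochondrial antioxidant and redox defence, taken from a fixed set of symbols with no threshold on these values: Sod1, Sod2, Cat, Gpx1, Gpx4, Prdx3, Prdx5, Txn2, Txnrd2 and Nfe2l2. All 10 were found among the 50686 genes listed in the count table. The name fits in part only, since Sod1, Cat and Nfe2l2 are not chiefly mitochondrial proteins: Sod1 is the mainly cytosolic dismutase, catalase is peroxisomal in most cells, and NRF2 acts in the nucleus. Expression was measured by sequencing of polyadenylated RNA in 3 mouse cell lines of 1 group, CDK6-K43M. These lines came from bone marrow of C57BL/6 mice whose CDK6, a kinase of the cell cycle that also acts on transcription, carries the K43M change that removes kinase activity. All 3 were transformed by a retrovirus carrying BCR-ABL(p185), the fusion oncogene of acute lymphoid leukaemia, and grew out as stable lines labelled as precursor B cells. The sources do not state whether each line came from its own mouse, so the spread between lines may be smaller than that between animals. Columns of wild type and CDK6-deficient lines were not used here, so no genotype was compared and every value below describes CDK6-K43M lines alone.

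The libraries held 21569845 counts in line 1, 19633463 in line 2 and 25773221 in line 3, and each of the 10 genes had between 194 and 11606 counts in every line. Levels are given as CPM, the counts of a gene per 1000000 counts of its library after TMM scaling, with the SD over the 3 lines, and 3 counts correspond to 0.138, 0.152 and 0.118 CPM in lines 1 to 3. The labelled cell type was checked against its markers: 10 of 10 precursor B cell genes were at 1 CPM or more in every line. Of the myeloid list only Lyz2 was, at 1.66 to 3.57 CPM, with Elane at 0, and no T cell gene was, with Cd3e, Cd3g and Cd8a at 0. Of the erythroid list only Hbb-bt was, at 2.17 to 6.32 CPM, with Hba-a1 at 0. Of the stroma and endothelium list only Pecam1 was, at 49.5, 80.2 and 99.7 CPM in lines 1 to 3, with Col1a1 and Cdh5 at 0. Cdk6 itself was at 449.5, 334.2 and 239.3 CPM, and the counts do not show the changed base.

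Gpx1, Gpx4 and Txnrd2 share a feature that the other members lack: their active site holds selenocysteine, encoded by a UGA codon that would otherwise end translation. The coding sequence around that codon is shown because it is the catalytic residue itself, with the codon in capitals (written TGA), 5′ to 3′ on the coding strand, from Gencode transcripts on mm10.
Gpx1: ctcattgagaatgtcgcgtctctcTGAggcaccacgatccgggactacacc
Gpx4: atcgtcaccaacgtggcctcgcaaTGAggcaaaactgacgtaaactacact
Txnrd2: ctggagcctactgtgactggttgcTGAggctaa
The codon lies at chr9:108339451-108339453 in exon 1 of 2 for Gpx1, at chr10:80054737-80054739 in exon 3 of 7 for Gpx4, and at chr16:18477772-18477774 in exon 17 of 17 for Txnrd2. In Txnrd2 only 1 codon separates it from the stop codon.

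The promoters of the members were searched on both strands for the core of the antioxidant response element, TGACNNNGC, which NRF2 binds, and for the NRF-1 motif of nuclear respiratory factor 1, a different protein that drives mitochondrial genes. All 10 members had a promoter window, which ran from 250 bases before to 50 bases after a start site in RefSeq, GRCm38.p6. The response element core was found in promoters of 2 of 10 members and in 12.4% of all 32851 promoters, and the NRF-1 motif in those of 1 of 10 members and in 4.6% of all promoters. Counted over promoters, each motif was found in 2 of the 13 promoters of the members, since some genes have several. The 3 matches are shown with the motif in capitals.
Nfe2l2: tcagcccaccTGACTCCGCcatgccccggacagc
Sod1: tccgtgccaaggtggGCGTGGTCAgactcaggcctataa
Gpx4: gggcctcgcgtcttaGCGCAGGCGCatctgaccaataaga
The Nfe2l2 window is chr2:75704880-75704913 on the minus strand, and its match is in the direction of the gene. The Sod1 window is chr16:90220691-90220729 on the plus strand, and its match is in the opposite direction. The Gpx4 window, with the NRF-1 motif, is chr10:80053491-80053530 on the plus strand. A match describes these letters only, and no binding was measured.

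All 10 genes were expressed, and their summed level was 1752 CPM in line 1, 1853 in line 2 and 2123 in line 3 (1909 ± 192, SD, n = 3). Together they took 0.176%, 0.186% and 0.21% of the counts. Line 3 was the highest for 8 of the 10, Txn2 was highest in line 1 and Nfe2l2 in line 2. Over all genes with a mean of at least 5 CPM, 37.6% were highest in line 3. The wider redox lists given below also leaned to line 3 in part. It was highest for 9 of 14 tested other peroxiredoxins, thioredoxins and glutaredoxins, 9 of 15 glutathione genes and 8 of 14 oxidant sources and other scavengers. The same held for 5 of 9 genes listed under mitochondrial NADPH supply, 9 of 20 NRF2 regulators and targets and 3 of 8 genes of selenoprotein synthesis. With library size alone as the scale, line 3 was highest for 7 members, and Gpx4 was then highest in line 1. Line 3 also had the most counts, and the summed myeloid markers were 1.75, 2.08 and 3.97 CPM in lines 1 to 3 and the erythroid markers 2.49, 4.41 and 6.44 CPM, and Pecam1 was highest there too. Of the precursor B cell markers, 9 of 10 were highest in line 2, and they summed to 3672, 4130 and 3830 CPM in lines 1 to 3. The part of depth and of these markers in the higher levels of line 3 was not tested.

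**Figure D1:**
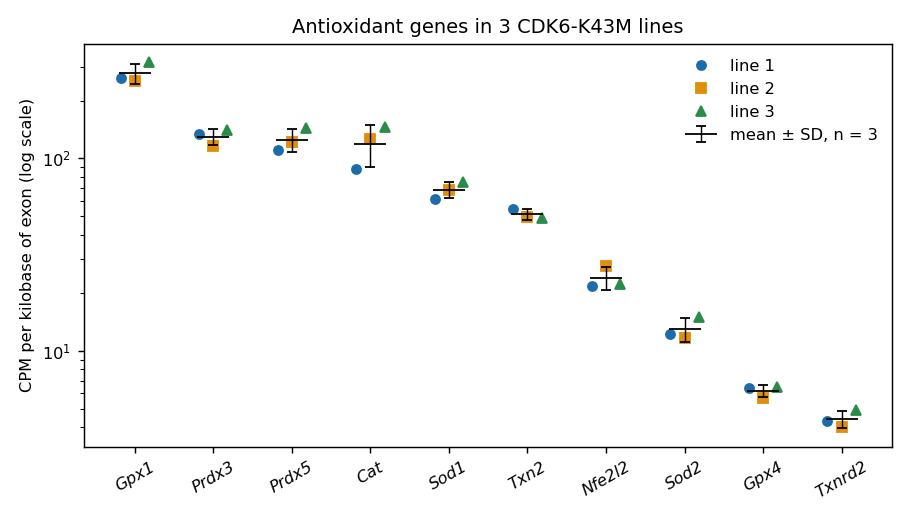
Level of each of the 10 genes in the 3 CDK6-K43M lines, as CPM per kilobase of exon on a log axis, with a point per line and a bar for the mean ± SD. Gpx1 is the highest at 277 CPM per kilobase and Txnrd2 the lowest at 4.42, and the lines of Prdx3, Prdx5 and Cat overlap.

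Of the 10 members, 9 had counts that differed between the lines beyond counting noise, against 66.8% of the 13974 genes tested (chi-square test of homogeneity on the counts, Benjamini-Hochberg adjustment over all genes tested). Every member had a mean of at least 5 CPM, and among the genes with such a mean 80.1% differed, so the count of members is near that share. This test compares these libraries and not conditions, and at this depth it finds small differences, so the size of each difference is given beside it. The typical spread was small: the SD of log2(CPM + 1) over the lines had a median of 0.16 over the members and of 0.15 over the 9389 genes with a mean of at least 5 CPM. Leaving out line 1, 2 or 3 left 8, 6 and 7 members that differed, against 54.3%, 54.5% and 47.1% of all genes tested in the same way. Those shares include genes of low counts. The share among genes with a mean of at least 5 CPM was not computed for these settings.

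The dismutases stood at different levels. Sod1, copper-zinc superoxide dismutase (ENSMUSG00000022982.9, chr16:90220754-90226329, plus strand), was at 245.4, 273.2 and 298.3 CPM in lines 1, 2 and 3 (272 ± 26.5, SD, n = 3). Line 3 was 1.22 times line 1, with a 95% counting interval of 1.17 to 1.26, and the adjusted p of the chi-square test was 6.69e-26. Here and below the highest line is set against the lowest, and the interval does not allow for that choice. The main transcript of a gene is here the annotated one with the longest coding sequence and, on a tie, the longest of those. Of the 592 stretches of 50 bases in the main transcript of Sod1, 23.1% also occur in the pseudogene Gm8566, which had 5 to 7 counts per line. Sod2, the manganese dismutase of the mitochondrial matrix (ENSMUSG00000006818.4, chr17:13006846-13040063, plus strand), was at 121.8, 116.0 and 150.5 CPM (129 ± 18.5). Line 3 stood above the others, which lay close together, and was 1.3 times line 2 (1.23 to 1.37, adjusted p = 2.08e-26 by the chi-square test). In Sod2 1.43% of the stretches of its main transcript are shared with other genes. Between lines 1 and 2 alone, without line 3, Sod2 did not pass the test (adjusted p = 0.133).

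Cat, catalase (ENSMUSG00000027187.10, chr2:103453849-103485160, minus strand), varied the most of the 10. It was at 229.2 CPM in line 1, 328.2 in line 2 and 378.5 in line 3 (312 ± 76.0), which is 4976, 6478 and 9642 counts. Line 1 was far below the others, and line 3 was 1.65 times line 1 (1.6 to 1.71, adjusted p = 3.97e-182 by the chi-square test). Its SD on the log2 scale, 0.37, was larger than that of 83.5% of genes with a mean of at least 5 CPM. It was the only member above the third quartile of the genes of like expression, which was 0.20.

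Both glutathione peroxidases use glutathione to reduce peroxides, Gpx1 those in solution and Gpx4 those in membrane lipids. Gpx1 (ENSMUSG00000063856.7, chr9:108338903-108340343, plus strand) was at 379.4, 363.5 and 455.6 CPM (400 ± 49.2), the highest of the members both in CPM and in CPM per kilobase of exon. Lines 1 and 2 lay close together, and line 3 was 1.25 times line 2 (1.22 to 1.29, adjusted p = 1.43e-60 by the chi-square test). Gpx4 (ENSMUSG00000075706.10, chr10:80047166-80056439, plus strand) was at 11.1, 9.83 and 11.2 CPM (10.7 ± 0.738), from 240, 194 and 284 counts. It was the only member whose lines did not differ beyond counting noise (adjusted p = 0.404 by the chi-square test), and the ratio of line 3 to line 2 was 1.13 with an interval of 0.942 to 1.37. The level of Gpx4 is uncertain: 584 of the 946 stretches of 50 bases in its main transcript (61.7%) also occur in Gpx4-ps2 or AC122253.3, and how reads that match several places were counted is not given in the sources used here. Those copies together had at most 2 counts per line.

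**Figure D2:**
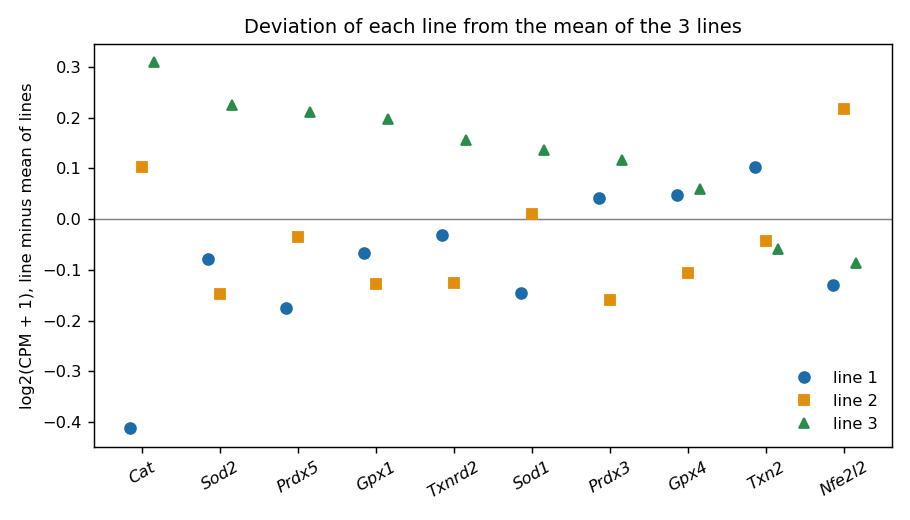
Deviation of each gene in each of the 3 CDK6-K43M lines from its mean over the lines, in log2(CPM + 1). Cat spans the widest range, from -0.41 in line 1 to 0.31 in line 3, and Txn2 and Nfe2l2 are the only genes that are not highest in line 3.

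The peroxiredoxins reduce hydrogen peroxide through a reactive cysteine, and Prdx3 and Prdx5 are the members found in mitochondria. Prdx3 (ENSMUSG00000024997.7, chr19:60864051-60874556, minus strand) was at 197.1, 171.3 and 207.5 CPM (192 ± 18.6). Line 2 was the lowest, and line 3 was 1.21 times line 2 (1.16 to 1.26, adjusted p = 7.13e-17 by the chi-square test), though without line 2 the call was lost (adjusted p = 0.094). Prdx5, which is also found in peroxisomes and the cytosol (ENSMUSG00000024953.16, chr19:6906697-6910106, minus strand), was at 235.7, 259.6 and 308.1 CPM (268 ± 36.9). Line 3 stood above the others and was 1.31 times line 1 (1.26 to 1.35, adjusted p = 1.63e-51 by the chi-square test).

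Txn2, the mitochondrial thioredoxin that reduces Prdx3 (ENSMUSG00000005354.15, chr15:77915047-77929006, minus strand), was among the steadiest members, at 230.8, 208.5 and 206.3 CPM (215 ± 13.5). Line 1 was the highest and lines 2 and 3 lay together, with line 1 at 1.12 times line 3 (1.08 to 1.16, adjusted p = 1.69e-08 by the chi-square test). Without line 1 the remaining lines did not pass the test (adjusted p = 0.675). Txnrd2, the mitochondrial thioredoxin reductase that passes electrons from NADPH to Txn2 (ENSMUSG00000075704.16, chr16:18426384-18479073, plus strand), was at 18.9, 17.7 and 21.7 CPM (19.4 ± 2.06), from 411, 349 and 553 counts. Line 3 was 1.23 times line 2 (1.07 to 1.41, adjusted p = 0.0114 by the chi-square test), and the call was lost without line 2 (adjusted p = 0.0942) and without line 3 (adjusted p = 0.447).

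Nfe2l2, which encodes NRF2 (ENSMUSG00000015839.6, chr2:75675513-75704641, minus strand), was at 82.3, 105.0 and 84.9 CPM (90.7 ± 12.4). Line 2 stood above the others and was 1.28 times line 1 (1.2 to 1.36, adjusted p = 1.53e-15 by the chi-square test), and without line 2 the others did not differ by the test (adjusted p = 0.647). NRF2 is regulated mainly through its protein, which the cell degrades in the absence of oxidants, and protein was not measured. Keap1, which marks NRF2 for degradation and is named after its values were seen, was at 88.9 ± 3.46 CPM and did not pass the test between lines (adjusted p = 0.0624 by the chi-square test).

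Set against genes of like expression, 7 of the 10 members had an SD above the median. Gpx4, Txn2 and Txnrd2 lay below it, with SDs of 0.09, 0.09 and 0.14 against medians of 0.25, 0.12 and 0.19.

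**Figure D3:**
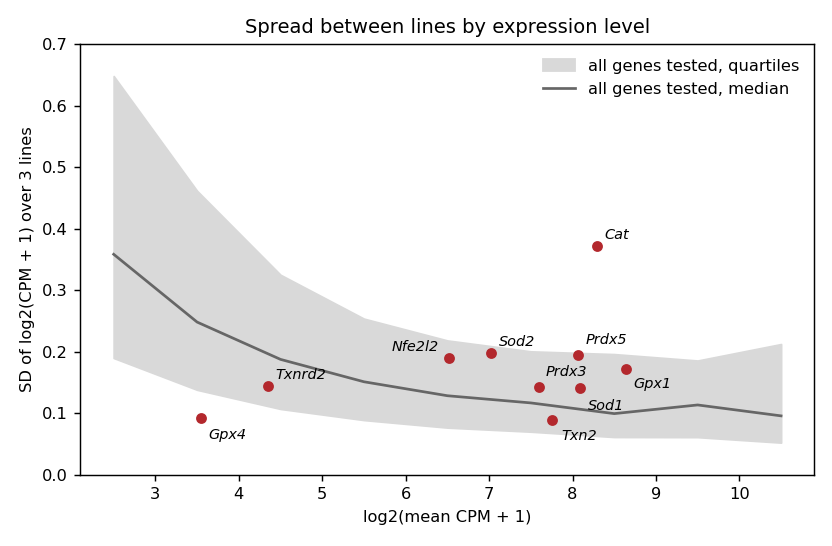
SD of log2(CPM + 1) over the 3 CDK6-K43M lines against log2(mean CPM + 1) for the 10 genes, with the median and quartiles of all genes tested as a line and a band. Cat lies above the band at 0.37, Gpx4 lies below it, and the others lie within it.

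Levels of different genes were compared per kilobase of exon, counted over all annotated exons of the gene. On that scale the order of the mean levels was Gpx1 at 277 CPM per kilobase, Prdx3 at 130, Prdx5 at 125, Cat at 119, Sod1 at 68.6, Txn2 at 51.1, Nfe2l2 at 23.9, Sod2 at 12.9, Gpx4 at 6.19 and Txnrd2 at 4.42. The highest was 62.8 times the lowest. In 7 of the 9 pairs of neighbours in this order every line of the higher gene was above every line of the lower one, and Prdx3 with Prdx5, and Prdx5 with Cat, overlapped. No p was computed, since 3 lines cannot go below 0.25 in an exact paired test.

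The order turned in part on the length used. With the length of the main transcript alone Sod1 led at 425 CPM per kilobase, with Gpx1 at 373 and Prdx5 at 355, but the lines of Sod1 and Gpx1, and of Gpx1 and Prdx5, overlapped. On this scale 5 of the 9 pairs of neighbours were separate in every line, and Txn2 stood at 105. Sod1 has 3970 bases of annotated exon but a main transcript of only 641 bases, and Sod2 has 10008 and 5861 bases. The main transcript was chosen from the annotation, and which transcripts these lines use was not measured. Nfe2l2, Sod2, Gpx4 and Txnrd2 remained the lowest 4 in the same order, at 36.7, 22.1, 10.7 and 6.77 CPM per kilobase. When only the stretches of 50 bases that no other gene shares were counted as length, Sod1 at 599 lay above Gpx1 at 391 in every line, and 6 of the 9 pairs were separate. Gpx4 then stood at 29.5 and above Sod2 at 22.6, so its place below Sod2 is uncertain. This scale kept all counts of a gene, so it reads too high for Sod1 and Gpx4 if reads from shared stretches were counted.

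The mitochondrial enzymes were set against their cytosolic partners per kilobase within each line. The ratio of Sod2 to Sod1 was 0.197, 0.168 and 0.2 in lines 1 to 3 (0.189 ± 0.0175), and that of Txn2 to Txn1, the cytosolic thioredoxin, was 0.198, 0.182 and 0.192 (0.191 ± 0.00793). The ratio of Txnrd2 to Txnrd1, its cytosolic counterpart, was 0.0551, 0.0494 and 0.064 (0.0561 ± 0.00735). In these 3 pairs the mitochondrial gene was lower in every line, also with the length of the main transcript, where the mean ratios were 0.052, 0.391 and 0.0439. Prdx3 and Prdx1, the abundant cytosolic peroxiredoxin, were near equal over all annotated exons, with ratios of 0.99, 0.825 and 1.04 (0.952 ± 0.113). With the main transcript Prdx3 was lower in every line, with ratios of 0.747, 0.622 and 0.785 (mean 0.718). Idh2, which makes NADPH in mitochondria, went the other way: its ratio to cytosolic Idh1 was 19.3, 8.3 and 18.9 (15.5 ± 6.22).

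**Figure D4:**
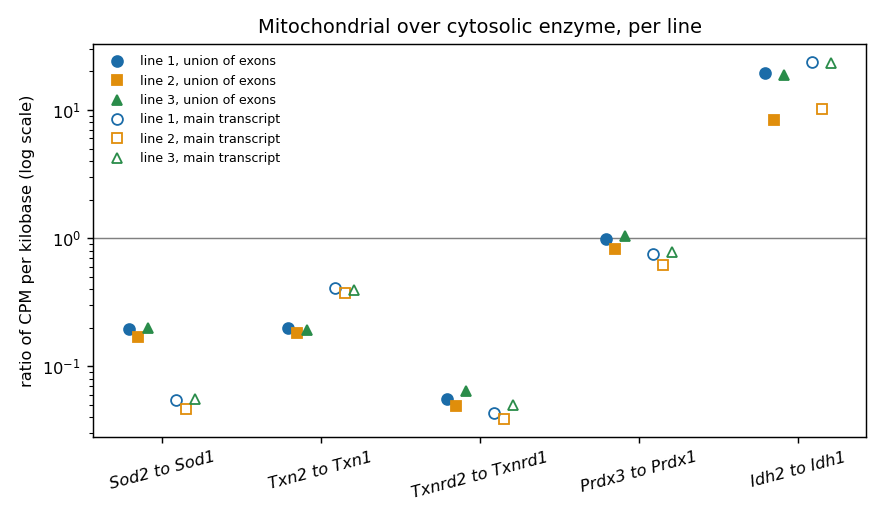
Ratio of each mitochondrial gene to its cytosolic partner in the 3 CDK6-K43M lines, from CPM per kilobase on a log axis, with a point per line, filled for all annotated exons and open for the main transcript. Sod2, Txn2 and Txnrd2 lie below 1 against their partners, Prdx3 lies nearest to 1 and Idh2 lies above 1 in every line.

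Each member was also set beside the expressed genes within 5 Mb on either side. The median deviation of these neighbours lay between -0.05 and 0.08 in every line for all 10 members, on the log2 scale. Single neighbours varied more than these medians, so the range of each member over the lines was compared with the ranges of its single neighbours. Cat ranged over 0.72, and 6 of its 25 neighbours ranged further. Sod2 was exceeded by the smallest share of its neighbours, 5 of 23 or 21.7%, and Txn2 by the largest, 99 of 124 or 79.8%. For 8 of the 10 members the range was above the median range of the neighbours, and for Gpx4 and Txn2 it was below.

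**Figure D5:**
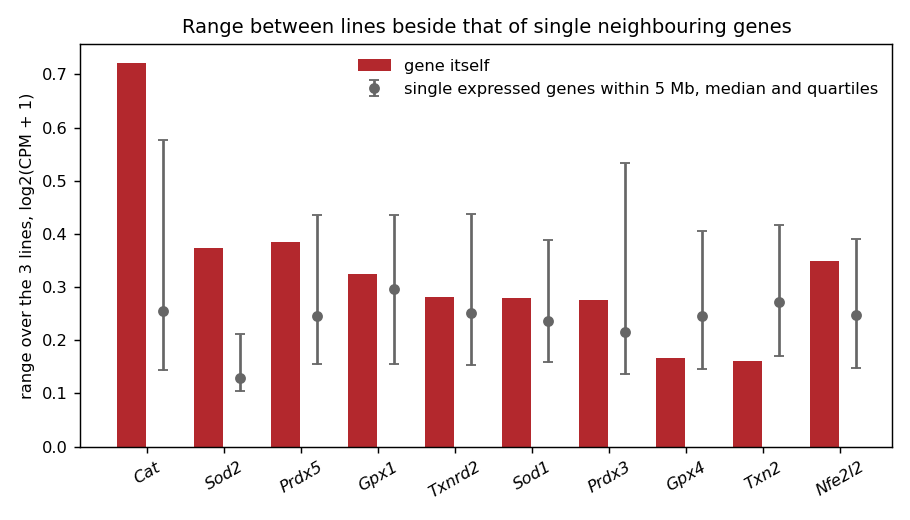
Range of each gene over the 3 CDK6-K43M lines (bars), beside the ranges of the single expressed genes within 5 Mb on either side (point for the median, bar for the quartiles), in log2(CPM + 1). Cat, at 0.72, and Sod2, at 0.37, lie above the third quartile of their neighbours, and Txn2, at 0.16, lies below the first.

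The other genes of the pathway are given from lists by role, and the gene named as varying most is the first among genes whose mean reached 5 CPM. The count that differed in each list is to be read against the whole data. There, 66.8% of all tested genes differed, and 80.1% where the mean reached 5 CPM. Whether any list exceeded these shares was not tested. Of 15 other peroxiredoxins, thioredoxins and glutaredoxins 14 were tested and all 14 differed between lines, with a median SD of 0.14. Txn1 was the highest of them at 268 ± 11.5 CPM per kilobase, and Prdx4, the peroxiredoxin of the endoplasmic reticulum, varied most at 78.8, 90.8 and 169.9 CPM. Prdx4 lies on the X chromosome, and the median deviations of its 30 neighbours, -0.30, -0.23 and 0.52, resembled its own of -0.43, -0.23 and 0.67 in lines 1 to 3. Srxn1, which repairs overoxidised peroxiredoxins and is named for its low values, had 0, 1 and 5 counts.

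Of 21 genes that make, reduce or use glutathione, 15 were tested and 10 differed, with a median SD of 0.16. Gsto1, a glutathione transferase, was the highest at 71.1 ± 9.93 CPM per kilobase, and Gsr, which returns oxidised glutathione to the reduced form, varied most at 78.2, 62.2 and 96.1 CPM. Below that mean, Mgst1, a membrane-bound glutathione transferase named after its values were seen, had 5, 128 and 168 counts. Gpx7 and Gpx8 had no counts in any line. Slc7a11, named for its low values, encodes the transporter that brings in cystine for glutathione synthesis and had 2, 0 and 0 counts. The medium held 50 µmol/l of 2-mercaptoethanol, a thiol, in all lines.

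Of 21 regulators and targets of NRF2, 20 were tested and 14 differed, with a median SD of 0.18. Tkt, transketolase of the pentose phosphate pathway, was the highest at 182 ± 11.2 CPM per kilobase. G6pdx, the enzyme that opens that pathway and makes NADPH, varied most at 56.0, 67.8 and 157.0 CPM, and like Prdx4 it lies on the X chromosome beside neighbours with medians of -0.35, -0.25 and 0.63. The NRF2 targets Nqo1 and Hmox1, named after their values were seen, were low. Nqo1 had 3, 9 and 3 counts, and Hmox1, heme oxygenase, was at 7.92, 6.64 and 11.1 CPM. Other genes of this list, also named after their values were seen, lay on both sides. Me1 had 0, 2 and 6 counts and Blvrb a mean of 4.55 CPM, while Fth1, Pgd and Taldo1 had means of 519, 218 and 175 CPM. The activity of NRF2 was not measured.

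Of 10 genes listed under mitochondrial NADPH supply 9 were tested and 8 differed, with a median SD of 0.09. How much NADPH each of these enzymes makes was not measured. Idh2 was the highest at 74.97 ± 24.5 CPM per kilobase and was at 177.4, 140.5 and 264.2 CPM, while Aldh4a1 varied most at 11.6, 12.3 and 5.1 CPM. All 8 genes for making selenoproteins, on which Gpx1, Gpx4 and Txnrd2 depend, were tested and 6 differed, with a median SD of 0.25. Sephs2, which makes the selenium donor, was the highest at 65.1 ± 12.1 CPM per kilobase, and Secisbp2, which binds selenoprotein messages, varied most at 23.9, 45.0 and 27.3 CPM. The medians of the 54 neighbours of Secisbp2, -0.30, 0.50 and -0.20, resembled its own deviations of -0.36, 0.53 and -0.17. Idh2, Gsr and Aldh4a1 did not follow their neighbours in this way: the deviations of Idh2 were -0.08, -0.41 and 0.49, and the medians of its 48 neighbours -0.03, 0.03 and 0.05.

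Of 17 oxidant sources and other scavengers 14 were tested and all 14 differed, with a median SD of 0.22. Ucp2, an inner membrane carrier, was the highest at 342 ± 41.1 CPM per kilobase. Cybb, the catalytic subunit of the phagocyte NADPH oxidase, which makes superoxide, varied most at 34.8, 16.7 and 152.4 CPM. Cybb also lies on the X chromosome, but the medians of its 34 neighbours were -0.02, 0.03 and -0.01 against its own deviations of -0.36, -1.38 and 1.74. Sod3, the secreted dismutase, had no counts in any line.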

How the data were processed

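The authors trimmed 50-base single-end reads with Trimmomatic, ran STAR against mm10 and assigned alignments to Gencode genes by featureCounts, and deposited raw counts. The labels name a SENSE mRNA-Seq kit and the methods a TruSeq kit, and the strand setting and the treatment of reads with several matches are not given in the sources used here. The 6 columns of other samples in the table were not used.

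Counts of the 3 CDK6-K43M lines were scaled by TMM (edgeR 4.0.16, R 4.3.3) to CPM. Genes that reached 10 counts in all 3 lines together were tested for equal share of the scaled libraries by a chi-square test of homogeneity, with Benjamini-Hochberg adjustment at 0.05 (Python 3.11.15, scipy 1.17.1). A test of groups was not possible with 1 group. Fold changes carry exact 95% binomial intervals, which cover counting error only. They set the highest line of each gene against its lowest, chosen from the same counts. The ratio therefore cannot fall below 1, and the interval does not allow for the choice. Log2 values have a pseudocount of 1 CPM. Coordinates and lengths came from a later Gencode release on mm10, which matched 50376 of 50686 genes.

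The members and lists were chosen with earlier results of these data known. All members, the genes of the ratios and Cdk6 are named, and from each list the gene with the highest CPM per kilobase and the one with the largest SD where the mean reached 5 CPM. Others are marked where named. Alternatives were DESeq2 size factors (1.42.0), library size alone, other count filters, a pseudocount of 0.1 CPM, main transcript length and leaving out each line.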

Additional observations from a re-analysis of the deposited data

How the results depend on the processing

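Of 72 values recomputed under an alternative, 5 moved. The order was scored only by its number of separate pairs, so a change of place between genes was not counted. Gpx1 led over all annotated exons, but with the main transcript Sod1 lay above it, at 425 against 373 CPM per kilobase. On that scale their lines overlapped. By stretches that no other gene shares, Sod1 and Gpx1 also changed places, as did Sod2 and Gpx4. Levels and ratios were judged against their SD over the lines, and the median SD against the SD of its values without each line. Leaving out 1 of 3 lines cannot by itself shift a mean level by its SD, so those values say little. The other 67 lay within these limits or, for counts, within 1.5 times. That includes members that differed falling from 9 to 6 without line 2. It also includes separate pairs in the order falling from 7 to 5 with the main transcript. Without a line in turn, the median SD of the members ranged from 0.106 (without line 3) to 0.184, and the number of members that differed from 6 to 8. With the length of the main transcript, the mean ratio was 0.052 for Sod2 to Sod1, 0.391 for Txn2 to Txn1, 0.0439 for Txnrd2 to Txnrd1 and 0.718 for Prdx3 to Prdx1. The share of all genes that differed was 45.3% with no filter on low counts, 74.6% with at least 10 counts in every line, and 47.1% to 54.5% without 1 line. The order by stretches that no other gene shares and the ranges of single neighbours were chosen after seeing the data. No paired analysis was possible because only 1 group, CDK6-K43M, was analysed. Depth limits Gpx4 most, at 194 to 284 counts per line.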
